A study of Arabidopsis thaliana with 44 samples.

Results

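Seedlings of Arabidopsis thaliana that carry atm-1, a mutant allele of the DNA damage kinase ATM, were compared at nearly the same hour of the afternoon after 2 kinds of ionising radiation. The comparison holds 4 of the 44 arrays of the series: 2 arrays of atm-1 sampled 1.5 h after HZE and 2 arrays of atm-1 sampled 6 h after gamma rays, chosen by the sample titles and not by any measured value. HZE here means accelerated iron nuclei, given at 30 Gy over about 12 minutes, and the gamma dose was 100 Gy over 15 minutes. The HZE seedlings were sampled at 2:39 pm and the gamma seedlings at 2:55 pm on day 1. All were 5 days old, and each array held RNA pooled from many whole seedlings. WT seedlings with the same treatments gave 2 arrays in each group, and unirradiated atm-1 and WT seedlings were sampled on day 1 at 10:45 am. The question was which transcripts differ between the radiations without ATM once the time of day is nearly equal. Radiation, dose, irradiation facility and hours since exposure all differ between the groups, and their parts cannot be told apart.

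ATM is a protein kinase that is activated by DNA double-strand breaks and that switches on repair, checkpoint and cell death genes in plants. Gamma rays scatter their damage through a nucleus, while a heavy ion leaves a dense track of breaks along its path. Plants that run short of carbon activate the SnRK1 kinase, break down branched-chain amino acids in the mitochondrion and form autophagosomes that recycle cell contents, and many transcripts of growth and sulfur metabolism follow light, sugar and the clock over a day.

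Levels are the deposited log2 values of Affymetrix arrays, and a difference of 1 is a 2-fold change. They do not tell a change of RNA in each cell from a change in the number of cells that hold it. Detection calls were not used, so levels below the array medians may lie near background, where the size of a difference is uncertain. All 44 arrays were fitted in 1 limma model, and a gene was called where its p-value, adjusted by Benjamini-Hochberg over 13355 genes, was under 0.05. Nothing in the labels says that the 2 arrays of a group came from separate cultures. HZE was given in 2 runs that are not assigned to arrays. The p-values and SE therefore measure only the spread between the arrays of a group, pooled over all 22 groups. The number of arrays limits the precision. One of the 4 arrays stood apart. Replicate 1 of atm-1 gamma 6 h had a median of 5.28 over the genes, against 5.33 to 5.47 for the other arrays. The atm-1 HZE 1.5 h arrays, at 5.35 and 5.33, lay at the low end of that range, as did the WT HZE arrays of 1.5 h and 3 h. The correlation between the 2 atm-1 gamma 6 h arrays was 0.989, and that of all other replicate pairs was 0.992 to 0.997. The pooled spread can therefore understate the error of the atm-1 gamma 6 h group. ATM had no probe set of its own in the annotation used, so its transcript gave no check of the genotype labels. Measured, for a gene of a list or a marker, means that it had such a probe set. Green-tissue transcripts such as LHCB4.2, at 12.46 and 12.44 in atm-1 HZE arrays and 12.12 and 12.14 in atm-1 gamma arrays, were abundant, as in whole seedlings.

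Of the 13355 genes, 5322 (39.9%) were called between atm-1 HZE 1.5 h and atm-1 gamma 6 h, 3103 of them higher after HZE (23.2%) and 2219 lower (16.6%). At least 2-fold differences were called higher for 884 genes (6.62%) and lower for 558 (4.18%). The median difference over all genes was 0.0065. Without the array that stood apart, 4537 genes were called, 2391 higher and 2146 lower. The balance of the 2 directions depended on the scaling, with 2581 higher and 2756 lower after cyclic loess, so single genes and groups of genes are described rather than the balance. The genes at least 2-fold higher had median changes of 1.03 after HZE and -0.37 after gamma from the same unirradiated atm-1 arrays, and those at least 2-fold lower had median changes of -1.26 after HZE and 0.17 after gamma. The unirradiated arrays were taken hours earlier in the day and serve both changes, so these values are given only side by side.

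Transcripts of leucine and valine breakdown stood among the largest differences. Of 11 measured genes that break down branched-chain amino acids, 8 rose and 2 fell after HZE relative to gamma. Their median was 1.48, beside 0.0065 for all genes, of which 23.2% were called higher and 16.6% lower. MCCA, a subunit of the carboxylase that acts in leucine breakdown, measured 12.83 and 12.73 in atm-1 HZE arrays, 7.61 and 8.02 in atm-1 gamma arrays, and 9.03 and 9.00 in unirradiated atm-1 arrays. Both HZE arrays lay above both gamma arrays, by 4.97 ± 0.27 on the log2 scale (limma adjusted p = 1.51e-15), a 31.2-fold difference. Each group held 2 arrays, and the value after ± is the SE of the model, pooled over all groups. MCCA lay 3.77 above the unirradiated mean after HZE, and both gamma arrays lay below both unirradiated ones.

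IVD, the isovaleryl-CoA dehydrogenase that acts just before that carboxylase, measured 11.78 and 11.66 in atm-1 HZE arrays and 7.20 and 7.42 in atm-1 gamma arrays. Its difference was 4.41 ± 0.19 (adjusted p = 1.42e-17). MCCB, the other carboxylase subunit, measured 12.12 and 12.07 in atm-1 HZE arrays and 8.42 and 8.58 in atm-1 gamma arrays, a difference of 3.59 ± 0.17 (adjusted p = 1.3e-16). All 3 leucine genes had HZE levels that did not overlap their gamma levels, as did 5257 of the 5322 called genes. For MCCA and IVD, the rule for naming the highest genes required this. ALDH6B2, the methylmalonate semialdehyde dehydrogenase of valine breakdown, measured 10.44 and 10.16 in atm-1 HZE arrays and 7.15 and 7.19 in atm-1 gamma arrays, 3.13 ± 0.15 higher (adjusted p = 8.58e-17). ETFQO and ETFBETA, which carry electrons from these dehydrogenases to the respiratory chain, were higher by 3.00 and 1.48. The 2 members called lower, AT5G09300 (-0.69) and AT4G31810 (-0.36), were no longer called without replicate 1 of the gamma group. The WT contrast had a median of 1.37 for the same 11 genes, with 7 higher and 0 lower.

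The list of transcripts linked to sugar starvation held 36 genes, of which 10 were measured. It behaved alike in part, with 7 of the 10 measured members higher and 1 lower after HZE. Its median was 1.63, and 23.2% of all genes were called higher and 16.6% lower. PPDK, which interconverts pyruvate and phosphoenolpyruvate, measured 11.72 and 11.57 in atm-1 HZE arrays, 6.55 and 7.16 in atm-1 gamma arrays, and 7.55 and 7.81 in unirradiated arrays, a difference between the radiations of 4.79 ± 0.25 (adjusted p = 6.26e-16). AKINBETA1, a beta subunit of the SnRK1 kinase, measured 12.01 and 12.04 in atm-1 HZE arrays, 8.38 and 8.28 in atm-1 gamma arrays, and 9.54 and 9.31 in unirradiated arrays. The groups were far apart, by 3.70 ± 0.20 (adjusted p = 1.66e-15). AT4G33150, annotated as the lysine-ketoglutarate reductase of lysine breakdown, was at 10.37 and 10.07 in atm-1 HZE arrays and 7.21 and 6.95 in atm-1 gamma arrays, 3.14 ± 0.18 higher (adjusted p = 4.49e-15). AT3G62550 lay far above its unirradiated level in both groups, at 12.27 and 12.32 in atm-1 HZE arrays, 10.15 and 10.31 in atm-1 gamma arrays, and 5.83 and 5.90 in unirradiated arrays, and the radiations differed by 2.07 ± 0.18 (adjusted p = 8.95e-11). ATSPS4F, a sucrose phosphate synthase, was the member that fell, by 1.14. The list holds genes chosen with earlier results of these data known, and its count is a description.

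**Figure D1:**
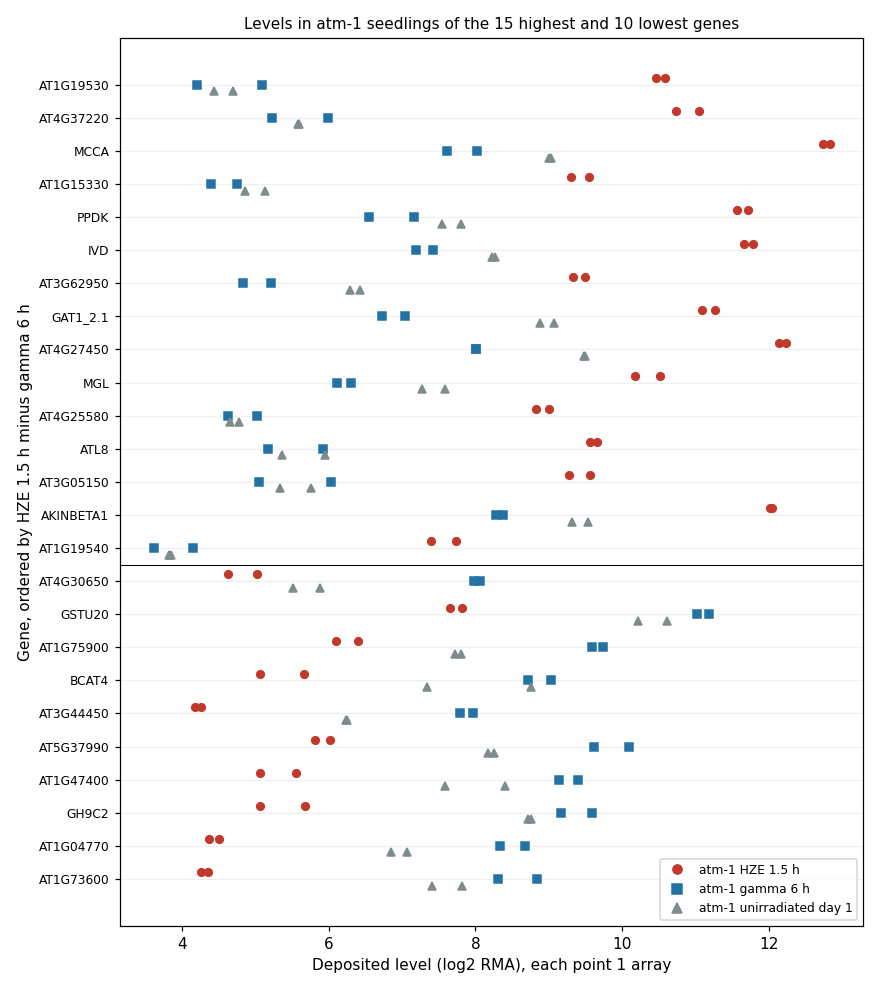
Deposited log2 level (horizontal axis) of the 15 genes with the largest positive and the 10 with the largest negative differences in atm-1, 1 gene a row and 1 point an array, for HZE 1.5 h (circles), gamma 6 h (squares) and unirradiated day 1 (triangles). For MCCA the HZE arrays lie at 12.83 and 12.73 and the gamma arrays at 7.61 and 8.02, and the HZE and gamma points do not overlap in any row, as the rule for naming these genes required.

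These transcripts were followed over the 4 times sampled after both radiations in atm-1, which has no 3 h sample here. MCCA averaged 12.78, 7.79, 7.97 and 10.08 at 1.5, 6, 12 and 24 h after HZE in atm-1, and 8.52, 7.82, 7.72 and 7.29 at the same times after gamma. PPDK averaged 11.64, 8.62, 7.19 and 8.59 after HZE, and 7.45, 6.86, 6.59 and 8.39 after gamma. AKINBETA1 averaged 12.03, 8.17, 9.24 and 10.56 after HZE, and 9.05, 8.33, 7.90 and 7.11 after gamma. At each gamma time in atm-1 these 3 genes lay below their level in the 1.5 h HZE arrays. In WT, which was also sampled at 3 h after HZE, MCCA averaged 12.67 at 1.5 h and 12.87 at 3 h, PPDK 11.59 and 12.21, and AKINBETA1 12.07 and 12.17, so the high WT levels were not limited to 1.5 h. The hours of the day differ along both courses.

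**Figure D2:**
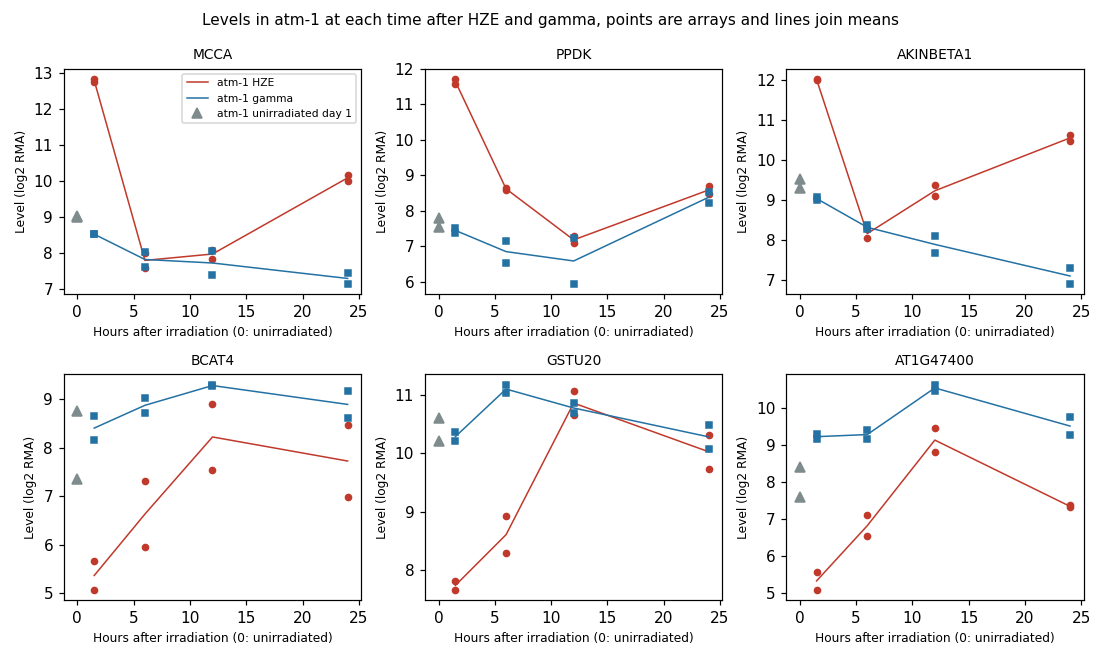
Log2 level (vertical axes) against hours after irradiation in atm-1 seedlings for 3 genes high and 3 genes low at 1.5 h after HZE, with arrays as points, lines through the means of the 2 arrays, and unirradiated day 1 arrays at 0. MCCA, PPDK and AKINBETA1 averaged 12.78, 11.64 and 12.03 at 1.5 h after HZE, and BCAT4, GSTU20 and AT1G47400 averaged 5.36, 7.74 and 5.31.

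The 15 highest also held MGL and GAT1_2.1, of amino acid and nitrogen metabolism, and ATL8, a gene of another kind. MGL, methionine gamma-lyase, which splits methionine, measured 10.52 and 10.17 in atm-1 HZE arrays and 6.12 and 6.30 in atm-1 gamma arrays, 4.14 ± 0.21 higher (adjusted p = 5.64e-16). GAT1_2.1, annotated as a glutamine amidotransferase, measured 11.26 and 11.08 in atm-1 HZE arrays, 6.73 and 7.04 in atm-1 gamma arrays, and 9.07 and 8.88 in unirradiated arrays. The 2 irradiated groups thus lay on both sides of the unirradiated one, and they differed by 4.29 ± 0.33 (adjusted p = 4.39e-12). ATL8, a member of a family of RING-type ubiquitin ligases, was at 9.65 and 9.56 in atm-1 HZE arrays and 5.93 and 5.17 in atm-1 gamma arrays, 4.06 ± 0.23 higher (adjusted p = 4.49e-15).

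The largest difference of all fell to AT1G19530, at 10.58 and 10.46 in atm-1 HZE arrays, 4.201 and 5.10 in atm-1 gamma arrays, and 4.70 and 4.44 in unirradiated arrays, 5.87 ± 0.49 higher after HZE (adjusted p = 2.72e-11). Its neighbour in locus number, AT1G19540, was at 7.74 and 7.39 in atm-1 HZE arrays and 4.15 and 3.62 in atm-1 gamma arrays, a difference of 3.68 ± 0.14 (adjusted p = 1.41e-18). AT4G37220 measured 11.05 and 10.74 in atm-1 HZE arrays, 5.23 and 5.99 in atm-1 gamma arrays, and 5.58 and 5.59 in unirradiated arrays, 5.29 ± 0.19 higher (adjusted p = 8.63e-19). In these genes the gamma arrays lay close to the unirradiated ones and the HZE arrays lay apart. The gamma arrays of AT1G19530 and AT1G19540 lay below the array medians, as did those of AT1G15330, AT3G62950 and AT4G25580. The sizes and ranks of these differences are therefore uncertain. AT1G15330 (4.85), AT3G62950 (4.39), AT4G27450 (4.18), AT4G25580 (4.08) and AT3G05150 (3.88) completed the 15. Replicates of the gamma group differed by up to 0.98 among these 15 genes, in AT3G05150, which measured 5.05 and 6.03 there and 9.56 and 9.27 after HZE.

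Of 40 listed autophagy genes 17 were measured, and their transcripts were higher after HZE almost throughout. Of the 17, 16 were called higher and 0 lower, with a median of 0.68, where 23.2% of all genes were called higher. ATG8E, one of the small proteins that coat the forming autophagosome, measured 10.36 and 10.28 in atm-1 HZE arrays, 8.21 and 8.57 in atm-1 gamma arrays, and 8.74 and 8.65 in unirradiated arrays, 1.93 ± 0.18 higher after HZE (adjusted p = 1.71e-10). ATG8F measured 11.13 and 11.01 in atm-1 HZE arrays and 9.58 and 9.89 in atm-1 gamma arrays, a difference of 1.34 ± 0.13 (adjusted p = 6.33e-10). AT5G66930, annotated as ATG101 of the complex that starts autophagosome formation, was at 7.70 and 7.51 in atm-1 HZE arrays and 5.78 and 6.71 in atm-1 gamma arrays, 1.36 ± 0.17 higher (adjusted p = 5.41e-08). All 9 measured genes of the ATG8 family, APG8A and APG8H among them, were called higher, from 0.54 in ATG8D to 1.93 in ATG8E. AT3G61960 was the member not called, at -0.084. The count leaned on the array that stood apart: without gamma replicate 1, 11 members were called higher and 1 lower, with a median of 0.52, and without gamma replicate 2 the count was 16 higher and the median 0.87. After cyclic loess, 14 were called higher. In WT 10 of the 17 rose and 1 fell.

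Of 34 listed genes of glucosinolate synthesis, which makes the sulfur-rich defence compounds of this plant family, 4 were measured. All 4 were lower after HZE, with a median of -2.61, where 16.6% of all genes were called lower. BCAT4, the aminotransferase that starts methionine chain elongation, measured 5.66 and 5.06 in atm-1 HZE arrays, 8.72 and 9.04 in atm-1 gamma arrays, and 7.35 and 8.76 in unirradiated arrays, a difference of -3.51 ± 0.67 (adjusted p = 6.92e-05). GSTU20, a glutathione transferase placed in the same list, measured 7.82 and 7.66 in atm-1 HZE arrays, 11.03 and 11.18 in atm-1 gamma arrays, and 10.22 and 10.61 in unirradiated arrays, -3.36 ± 0.30 (adjusted p = 9.56e-11). Both genes lay below their unirradiated levels after HZE and near or above them after gamma. UGT74B1, the glucosyltransferase of the pathway, was at 7.09 and 6.89 in atm-1 HZE arrays and 8.72 and 8.96 in atm-1 gamma arrays, a difference of -1.85 ± 0.18 (adjusted p = 7.92e-10), and AT2G31790 differed by -1.52. The same 4 genes were lower in the WT contrast, with a median of -2.83. Over the HZE course in atm-1, GSTU20 averaged 7.74, 8.61, 10.86 and 10.03 at 1.5, 6, 12 and 24 h, beside 10.29, 11.10, 10.78 and 10.28 after gamma.

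Of 8 measured glutathione transferases, which join glutathione to toxic compounds, 5 were lower after HZE and 1 higher, with a median of -1.24. The 5 include GSTU20 of the glucosinolate list, and 16.6% of all genes were called lower. GSTU25 measured 6.24 and 5.76 in atm-1 HZE arrays, 8.75 and 9.38 in atm-1 gamma arrays, and 7.85 and 7.59 in unirradiated arrays, -3.06 ± 0.31 (adjusted p = 1.09e-09). GSTU22 (-2.25) and GSTU27 (-2.01) were lower too, and GSTU16 rose by 1.13. The oxidative stress list held 18 genes, and the 4 measured were all called lower, with a median of -0.88. NDB2, an alternative NAD(P)H dehydrogenase of the mitochondrion, was at 6.55 and 6.58 in atm-1 HZE arrays, 8.25 and 8.76 in atm-1 gamma arrays, and 8.32 and 8.00 in unirradiated arrays, -1.94 ± 0.17 (adjusted p = 6.5e-11). ATMDAR2, which recycles ascorbate, differed by -1.04. GR1, a glutathione reductase (-0.27), and AT2G21640 (-0.73) were no longer called without gamma replicate 2, which left 2 of the 4.

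Of 27 iron response genes listed, 3 were measured. All 3 were lower after HZE, where 16.6% of all genes were called lower. AT1G47400 measured 5.07 and 5.56 in atm-1 HZE arrays, 9.14 and 9.40 in atm-1 gamma arrays, and 7.59 and 8.40 in unirradiated arrays, a difference of -3.96 ± 0.28 (adjusted p = 7.11e-13). BHLH101, a transcription factor of the iron deficiency response, was at 5.71 and 6.20 in atm-1 HZE arrays and 7.44 and 7.74 in atm-1 gamma arrays, -1.63 ± 0.32 (adjusted p = 0.000105). PYE, another such factor, differed by -1.07 ± 0.18 (adjusted p = 1.22e-05). AT1G47400 averaged 9.21, 9.27, 10.53 and 9.50 at 1.5, 6, 12 and 24 h after gamma in atm-1, and 5.31, 6.81, 9.12 and 7.33 after HZE. Its gamma levels therefore lay above the unirradiated mean of 7.99 at each of the 4 times.

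Among the 10 lowest genes, GH9C2, a glycosyl hydrolase of the family of plant endoglucanases, had 5.68 and 5.07 in atm-1 HZE arrays, 9.17 and 9.58 in atm-1 gamma arrays, and 8.71 and 8.75 in unirradiated arrays, -4.00 ± 0.16 (adjusted p = 2.07e-18). AT1G73600 had the largest fall, at 4.36 and 4.27 in atm-1 HZE arrays, 8.31 and 8.84 in atm-1 gamma arrays, and 7.41 and 7.82 in unirradiated arrays, -4.26 ± 0.34 (adjusted p = 1.06e-11). The other loci without a symbol were AT1G04770 (-4.07), AT5G37990 (-3.94), AT3G44450 (-3.66), AT1G75900 (-3.42) and AT4G30650 (-3.19). The HZE arrays of AT1G73600, AT1G04770, AT3G44450 and AT4G30650 lay below the array medians, so the sizes and order of these falls are uncertain. AT4G30650 changed by -0.86 after HZE and 2.33 after gamma from the unirradiated mean, and AT1G75900 by -1.51 and 1.90. AT4G30650 measured 5.03 and 4.63 in atm-1 HZE arrays, 7.98 and 8.06 in atm-1 gamma arrays, and 5.88 and 5.51 in unirradiated arrays.

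Expansins and xyloglucan transferases, which loosen and rebuild the cell wall during growth, had 4 of 21 measured members higher, where 23.2% of all genes were called higher, and 10 lower, where 16.6% were called lower, with a median of -0.45. EXPB3 measured 5.63 and 5.08 in atm-1 HZE arrays, 8.61 and 8.46 in atm-1 gamma arrays, and 8.54 and 8.68 in unirradiated arrays, -3.18 ± 0.26 (adjusted p = 1.34e-11). EXPA16 went the other way, at 7.60 and 7.55 in atm-1 HZE arrays, 4.78 and 4.59 in atm-1 gamma arrays, and 4.95 and 4.95 in unirradiated arrays, 2.89 ± 0.19 higher (adjusted p = 2.02e-13). For both genes the gamma arrays lay near the unirradiated ones. EXPA8 (-2.42) and XTH19 (-2.10) were lower and EXLA1 (1.66) higher. EXPA18, a root hair expansin, was lower (-0.70, adjusted p = 0.000577), and EXPA7, the other measured root marker, differed by -0.45 (adjusted p = 0.117). Of 4 measured shoot and stomatal markers, STOMAGEN (0.67) and FMA (0.56) rose, SPCH fell by 0.44 and MUTE was not called. The call of FMA was lost after cyclic loess and that of SPCH without gamma replicate 2. The part of tissue make-up in the other differences was not tested, and no vascular or seed marker was measured.

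**Figure D3:**
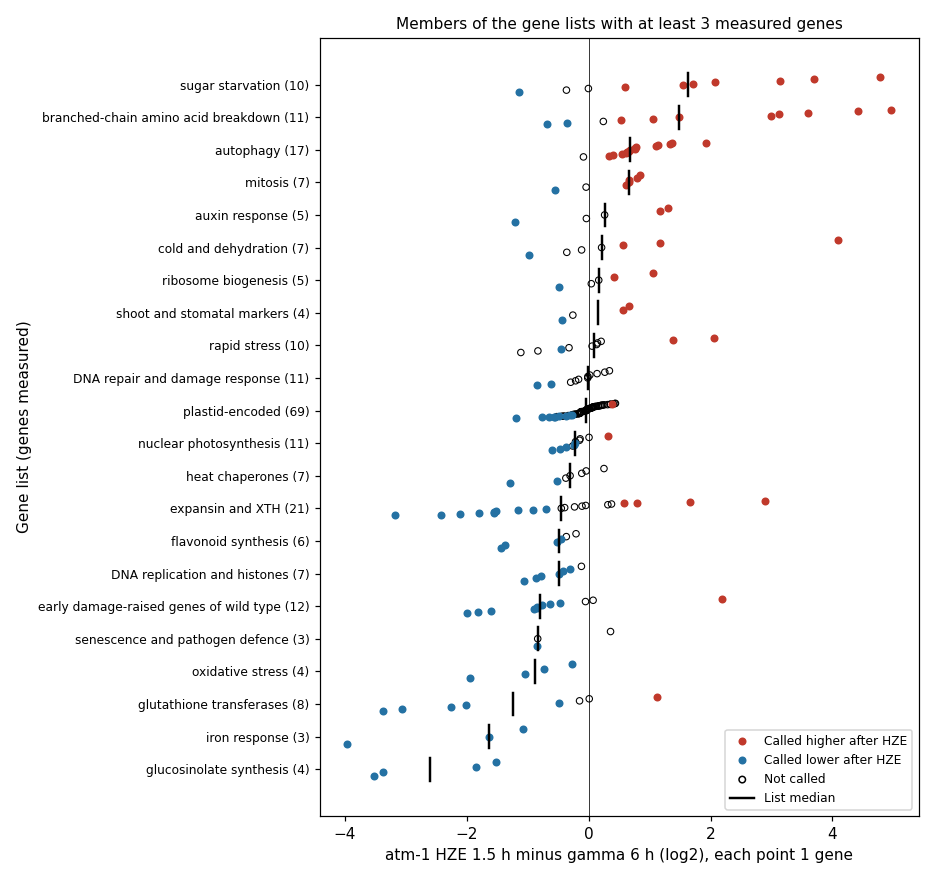
Differences between HZE 1.5 h and gamma 6 h in atm-1 (horizontal axis, log2) for the genes of each list with at least 3 measured members, 1 point a gene, filled where called and open where not, with the list median as a bar and the number of genes in brackets. Medians run from -2.61 for glucosinolate synthesis to 1.63 for sugar starvation.

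Of 36 listed mitotic genes 7 were measured, 5 of them called higher after HZE and 1 lower, with a median of 0.66. Over all genes, 23.2% were called higher and 16.6% lower. AUR3, an Aurora kinase that acts on chromosomes in mitosis, measured 6.58 and 5.89 in atm-1 HZE arrays, 5.41 and 5.47 in atm-1 gamma arrays, and 5.65 and 5.84 in unirradiated arrays, 0.79 ± 0.21 higher (adjusted p = 0.00234). The call of AUR3 was lost without HZE replicate 1 (adjusted p = 0.152). AUR2 measured 5.71 and 5.85 in atm-1 HZE arrays, 5.23 and 4.99 in atm-1 gamma arrays, and 6.76 and 7.05 in unirradiated arrays, 0.67 ± 0.18 higher (adjusted p = 0.00334). AUR2 therefore lay below its unirradiated level in both groups, further after gamma. 3xHMG-box2, a chromatin protein of dividing cells, was at 7.18 and 7.13 in atm-1 HZE arrays, 6.19 and 6.45 in atm-1 gamma arrays, and 7.55 and 7.64 in unirradiated arrays, 0.84 ± 0.21 higher (adjusted p = 0.00147).

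Genes of DNA replication and histones moved the opposite way, with 6 of 7 measured members lower, 0 higher and a median of -0.48. The list held 40 genes, and 16.6% of all genes were called lower. HTB1, a histone H2B gene, measured 7.50 and 7.51 in atm-1 HZE arrays, 8.53 and 8.59 in atm-1 gamma arrays, and 9.34 and 9.26 in unirradiated arrays, -1.06 ± 0.13 (adjusted p = 1.05e-07). HTB2, also H2B, was at 5.95 and 5.87 in atm-1 HZE arrays, 6.66 and 6.87 in atm-1 gamma arrays, and 7.37 and 7.34 in unirradiated arrays, -0.86 ± 0.15 (adjusted p = 2.36e-05). PRL, the MCM7 subunit of the replicative helicase, was at 6.75 and 6.81 in atm-1 HZE arrays, 7.44 and 7.69 in atm-1 gamma arrays, and 7.84 and 7.85 in unirradiated arrays, -0.78 ± 0.12 (adjusted p = 4.44e-06). All 3 lay below their unirradiated levels in both groups and lower after HZE. AT2G28720 differed from them, at 7.06 and 7.21 in atm-1 HZE arrays and 7.35 and 7.89 in atm-1 gamma arrays against 5.58 and 5.62 in unirradiated arrays, and its call (-0.48) was lost without gamma replicate 2. Without gamma replicate 2, 3 of the 7 stayed called lower.

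Of 11 measured genes of DNA repair and the damage response, 0 were higher and 2 were lower, with a median of -0.014, where 39.9% of all genes were called in either direction. ATMND1, which acts in meiotic recombination, measured 4.36 and 4.12 in atm-1 HZE arrays, 4.90 and 5.28 in atm-1 gamma arrays, and 4.05 and 4.104 in unirradiated arrays, -0.85 ± 0.16 (adjusted p = 5.51e-05). RECQ4A, a DNA helicase, differed by -0.61 ± 0.13 (adjusted p = 0.000192). ATLIG4, the ligase of non-homologous end joining, measured 6.25 and 6.41 in atm-1 HZE arrays and 6.18 and 5.80 in atm-1 gamma arrays, 0.34 ± 0.15, which did not pass the threshold (adjusted p = 0.0814). The list held 61 genes, of which 50 had no probe set of their own in the annotation used. Much of the damage response could therefore not be followed by gene.

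A list of 12 genes raised early by radiation in WT was followed in atm-1. The list was chosen on these arrays, so high WT levels after irradiation follow from the choice. The WT counts and the differences between genotypes in this list can follow from it too, and are no separate support. In atm-1 9 of the 12 were lower 1.5 h after HZE than 6 h after gamma, 1 was higher and 2 were not called. The median of the 12 was -0.80, where 16.6% of all genes were called lower and 23.2% higher. In WT 8 were higher and 2 lower, with a median of 0.89. AT5G67460 measured 5.25 and 5.23 in atm-1 HZE arrays, 6.98 and 7.50 in atm-1 gamma arrays, and 5.95 and 6.07 in unirradiated arrays, a difference of -1.99 ± 0.17 (adjusted p = 3.57e-11). AT2G47680 measured 4.61 and 4.47 in atm-1 HZE arrays, 6.00 and 6.70 in atm-1 gamma arrays, and 4.66 and 4.21 in unirradiated arrays, -1.81 ± 0.17 (adjusted p = 4.1e-10). In both genes the gamma arrays stood above the unirradiated ones and the HZE arrays did not. AT4G22960, whose HZE arrays lay slightly above the unirradiated ones, was at 5.25 and 5.50 in atm-1 HZE arrays, 6.72 and 7.24 in atm-1 gamma arrays, and 5.11 and 5.18 in unirradiated arrays, -1.60 ± 0.18 (adjusted p = 6.9e-09).

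AT5G48020 (-0.89), AT5G60250 (-0.85), ATMND1 (-0.85), AT5G11460 (-0.76), AT5G23910 (-0.63) and AT3G42860 (-0.48) were lower by less. Without gamma replicate 2 the calls of AT5G23910 and AT3G42860 were lost, which left 7 lower, and the count of higher genes was then 2. AT2G18600 (-0.051, adjusted p = 0.837) and AT2G45460 (0.074, adjusted p = 0.767) were not called, and their gamma arrays spanned their HZE arrays. AT3G45730 was the one member higher after HZE, at 7.95 and 7.46 in atm-1 HZE arrays, 5.65 and 5.39 in atm-1 gamma arrays, and 4.96 and 4.82 in unirradiated arrays, 2.19 ± 0.18 (adjusted p = 1.35e-11). It measured 10.69 and 10.62 in WT HZE arrays, 8.04 and 8.23 in WT gamma arrays, and 5.07 and 4.94 in unirradiated WT arrays. The difference between the radiations in AT3G45730 was 2.19 in atm-1 and 2.52 in WT, and the genotypes were not called different (-0.33 ± 0.25, adjusted p = 0.55).

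**Figure D4:**
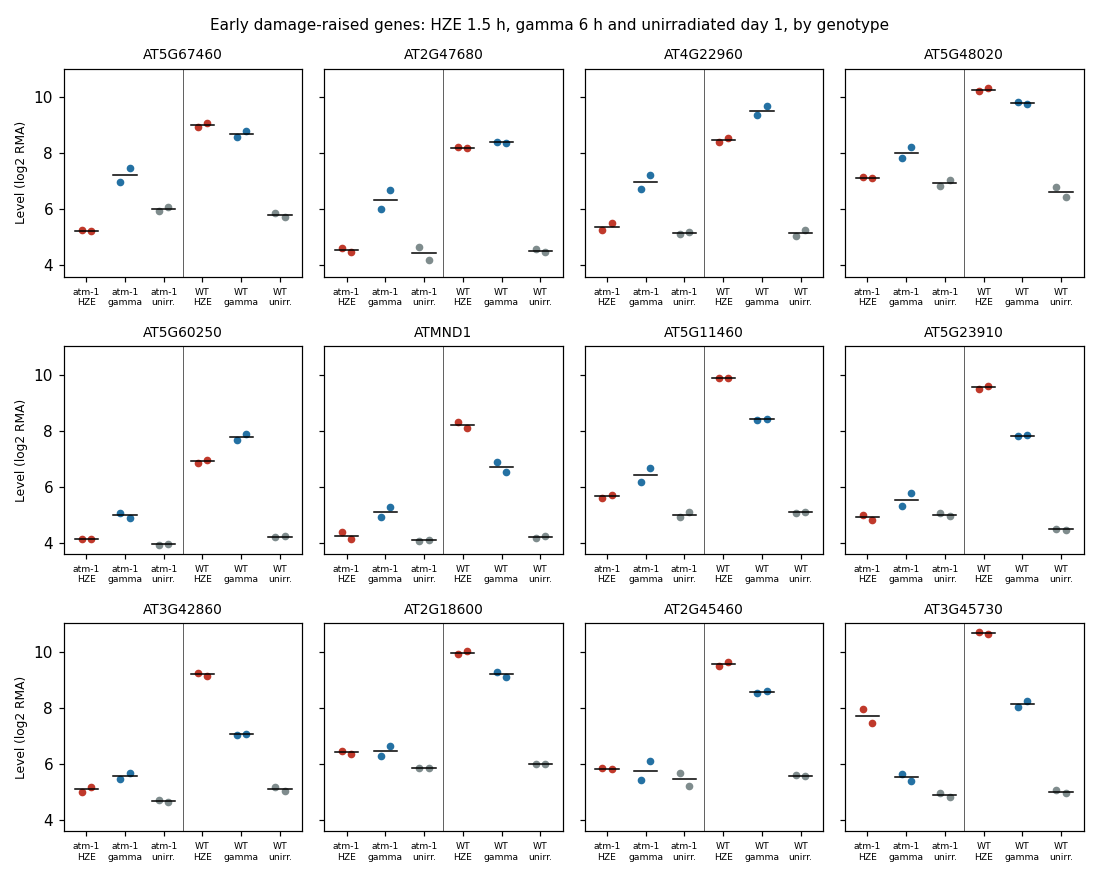
Log2 level (vertical axes) of the 12 early damage-raised genes in atm-1 (left of each panel) and WT (right) at HZE 1.5 h, gamma 6 h and unirradiated day 1, with arrays as points and group means as bars. In atm-1 the gamma mean stands above the HZE mean in most panels, while AT3G45730, at 7.95 and 7.46 after HZE and 5.65 and 5.39 after gamma, runs the other way.

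The same contrast in WT called 5267 genes (39.4%). Over the 13355 genes, the differences in atm-1 and WT had a Pearson correlation of 0.881 and a Spearman correlation of 0.754, as a description across genes that are not independent replicates, and the 2 contrasts share no array. Calls in both genotypes were made for 3979 genes, 3946 of them in the same direction, which is 74.1% of the atm-1 calls and 74.9% of the WT calls. MCCA differed by 4.97 in atm-1 and 5.39 in WT, GSTU20 by -3.36 in atm-1 and -3.52 in WT, and AT1G47400 by -3.96 in atm-1 and -4.52 in WT. None of these 3 was called different between the genotypes (adjusted p = 0.619, 0.895 and 0.514), which does not show that they are equal.

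The atm-1 difference minus the WT difference was called for 317 genes (2.37%), 180 of them positive and 137 negative. This count was not stable. It was 150 without atm-1 gamma replicate 1, 1662 without atm-1 gamma replicate 2 and 156 to 206 without any 1 of the other 6 arrays, and the split was 108 positive and 178 negative after cyclic loess. The genes below were called without replicate 1 as well, unless stated. AT1G20180 had the most negative value, -3.49 ± 0.17 (adjusted p = 9.06e-15): it measured 3.29 and 3.63 in atm-1 HZE arrays and 3.02 and 3.35 in atm-1 gamma arrays, against 7.81 and 7.74 in WT HZE arrays and 4.12 and 3.90 in WT gamma arrays. AT1G59660 (-2.82 ± 0.28, adjusted p = 6.18e-08) measured 4.02 and 4.12 in atm-1 HZE arrays and 4.16 and 3.87 in atm-1 gamma arrays, against 7.57 and 7.59 in WT HZE arrays and 4.61 and 4.79 in WT gamma arrays. Both genes were thus high in the WT HZE arrays alone among these 8 arrays. AT3G42860 (-2.63), AT5G23910 (-2.37) and ATMND1 (-2.36), all of the damage list, followed. Of that list 9 of 12 genes were called between the genotypes, which can follow from choosing it on WT levels in these arrays.

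The 2 most positive values belonged to genes whose WT gamma arrays stood above the other 6 arrays. AT3G48770 measured 4.296 and 3.83 in atm-1 HZE arrays and 4.37 and 4.53 in atm-1 gamma arrays, against 4.54 and 4.36 in WT HZE arrays and 7.25 and 7.64 in WT gamma arrays, a difference between genotypes of 2.61 ± 0.24 (adjusted p = 1.48e-08). AT1G05030 measured 7.12 and 7.08 in atm-1 HZE arrays and 6.59 and 7.26 in atm-1 gamma arrays, against 7.35 and 7.10 in WT HZE arrays and 9.39 and 9.03 in WT gamma arrays, 2.15 ± 0.23 (adjusted p = 1.84e-07). AT3G48960 (1.87), AT3G60420 (1.71) and AT4G37290 (1.68) completed the highest. The call of AT4G37290 (adjusted p = 0.0411) was lost in 11 alternatives, among them the fit without atm-1 gamma replicate 1.

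Members of other lists also differed between the genotypes. IAA29, an auxin response repressor, measured 5.40 and 5.87 in atm-1 HZE arrays and 6.99 and 6.68 in atm-1 gamma arrays, against 8.05 and 8.17 in WT HZE arrays and 7.56 and 7.49 in WT gamma arrays. It was lower after HZE in atm-1, and the genotypes differed by -1.79 ± 0.36 (adjusted p = 0.00356). HTB2 was lower after HZE in atm-1 and measured 5.57 and 5.25 in WT HZE arrays and 5.27 and 5.29 in WT gamma arrays, with a difference between genotypes of -0.99 ± 0.22 (adjusted p = 0.0092). ATG8B was at 7.76 and 7.60 in atm-1 HZE arrays and 6.35 and 6.75 in atm-1 gamma arrays, against 7.49 and 7.85 in WT HZE arrays and 7.47 and 7.50 in WT gamma arrays, 0.95 ± 0.21 (adjusted p = 0.00927), a call lost without atm-1 gamma replicate 1. AT4G25580 was higher by 4.08 in atm-1 and by 5.72 in WT, a difference between genotypes of -1.64 ± 0.38 (adjusted p = 0.0171) that was likewise lost without that array.

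**Figure D5:**
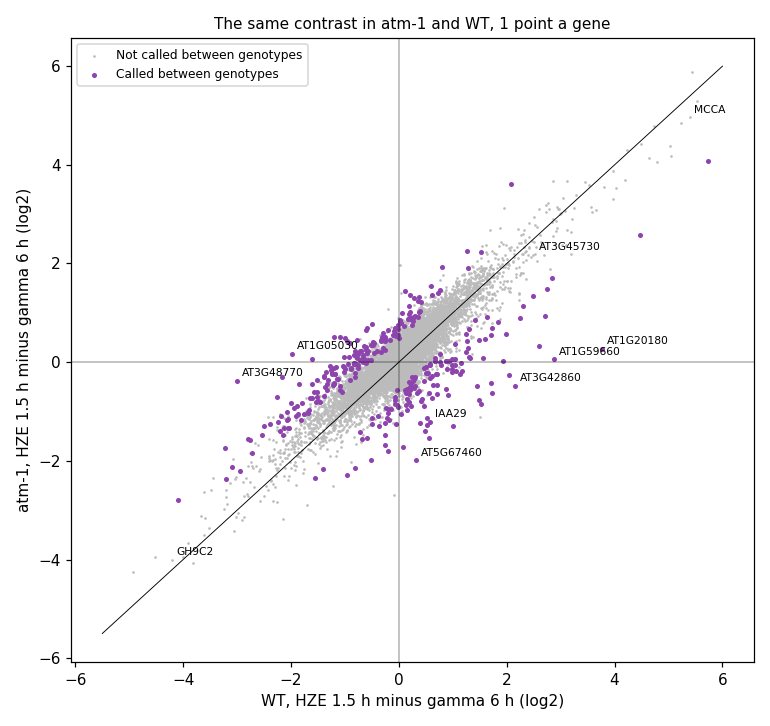
HZE 1.5 h minus gamma 6 h in atm-1 (vertical axis, log2) against the same difference in WT (horizontal axis), 1 point for each of 13355 genes, with the 317 genes called between genotypes in purple and the line of equal values. MCCA lies near the line at 4.97 in atm-1 and 5.39 in WT, and AT1G20180 lies near 0 in atm-1 and at 3.77 in WT.

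Of 10 measured rapid stress genes, 2 rose and 1 fell, where 39.9% of all genes were called in either direction. The cold, heat and senescence counts of this paragraph stand beside the same share. AT4G27652, at 8.23 and 7.08 in atm-1 HZE arrays and 5.64 and 5.56 in atm-1 gamma arrays, rose by 2.06 ± 0.54 (adjusted p = 0.00263), and CML38, a calmodulin-like protein, rose by 1.38 ± 0.40 (adjusted p = 0.00544), and both calls were lost without HZE replicate 1, that of CML38 also without gamma replicate 1. STZ, a zinc finger repressor, measured 8.21 and 7.22 in atm-1 HZE arrays and 8.55 and 8.54 in atm-1 gamma arrays, and its difference of -0.83 ± 0.46 did not pass the threshold (adjusted p = 0.163). Of 7 cold and dehydration genes 3 rose and 1 fell, COR47, a dehydrin, by 1.17 and COR15A, which protects chloroplast membranes in the cold, by -0.98. Of 7 heat chaperone genes 2 fell, among them AT5G48570, annotated as the immunophilin ROF2, at 3.40 and 3.69 in atm-1 HZE arrays and 4.76 and 4.92 in atm-1 gamma arrays (-1.29 ± 0.25, adjusted p = 7.21e-05). Of 3 senescence and pathogen defence genes 1 fell, the thionin gene THI2.2 (-0.84), and BZIP60, the measured regulator of endoplasmic reticulum stress, rose by 0.37, a call lost after cyclic loess.

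Of 6 measured flavonoid genes, 4 were lower and 0 higher, where 16.6% of all genes were called lower. UGT78D1, a flavonol glycosyltransferase, measured 5.58 and 5.90 in atm-1 HZE arrays, 7.09 and 7.25 in atm-1 gamma arrays, and 8.37 and 8.52 in unirradiated arrays, -1.43 ± 0.17 (adjusted p = 2.93e-08). CHIL, a chalcone isomerase-like protein, measured 5.36 and 4.70 in atm-1 HZE arrays, 6.17 and 6.63 in atm-1 gamma arrays, and 8.56 and 8.63 in unirradiated arrays, -1.37 ± 0.24 (adjusted p = 2.57e-05). Both lay below the unirradiated level in both groups, more so after HZE. DFR (-0.51) and UGT78D2 (-0.45) were no longer called without gamma replicate 2, which left 2 lower, while 5 were called lower without gamma replicate 1.

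Of 34 listed clock genes, 2 were measured. CCL was at 12.66 and 12.53 in atm-1 HZE arrays, 11.12 and 11.21 in atm-1 gamma arrays, and 7.52 and 7.49 in the unirradiated arrays of the morning, 1.43 ± 0.13 higher after HZE (adjusted p = 1e-10). GI, an evening regulator of the clock, was at 8.34 and 8.48 in atm-1 HZE arrays, 8.54 and 8.64 in atm-1 gamma arrays, and 6.69 and 6.65 in unirradiated arrays. The HZE and gamma arrays of GI did not overlap, yet their difference of -0.18 ± 0.13 did not pass the threshold (adjusted p = 0.284). Of 26 listed auxin response genes 5 were measured, 2 called higher and 1 lower, where 39.9% of all genes were called in either direction. WES1, which conjugates auxin to amino acids, rose by 1.298 and HAT2, a homeodomain factor, by 1.17, while IAA29 fell by 1.204.

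Photosynthesis transcripts of the nucleus differed little and depended on the scaling. Of 11 measured members 1 was higher and 5 lower, with a median of -0.22, and after cyclic loess 3 were higher and 2 lower, with a median of 0.024. ATPC1, a subunit of the chloroplast ATP synthase, measured 12.48 and 12.58 in atm-1 HZE arrays and 12.98 and 13.03 in atm-1 gamma arrays, -0.47 ± 0.08 (adjusted p = 9.05e-06). Of 69 plastid-encoded genes 1 was higher and 9 lower, beside 23.2% and 16.6% of all genes. The plastid median was -0.039. Without gamma replicate 1 the counts were 0 higher and 11 lower, without gamma replicate 2 they were 4 higher and 1 lower, and after cyclic loess 9 higher and 8 lower. The plastid gene rps14, of a ribosomal protein, measured 7.22 and 6.63 in atm-1 HZE arrays and 7.53 and 8.71 in atm-1 gamma arrays, and its call was lost without gamma replicate 2. Of 5 ribosome biogenesis genes 2 rose and 1 fell, DIM1A, an rRNA methyltransferase, by 1.06, and 1 of 2 cytosolic ribosomal protein genes fell, AT3G09630, by 0.30, a call lost after cyclic loess.

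The time since exposure can be matched instead of the hour of day. Between atm-1 HZE 1.5 h and atm-1 gamma 1.5 h, sampled at 10:10 am, 5196 genes (38.9%) were called. The comparison uses the same HZE arrays as the one above, so the values are set side by side only. MCCA was 4.97 higher than at gamma 6 h and 4.26 higher than at gamma 1.5 h, and ATG8E was higher by 1.93 and 1.89. GSTU20 differed by -3.36 from gamma 6 h and by -2.55 from gamma 1.5 h, and GH9C2 by -4.00 and -3.99. Other genes gave unlike values under the 2 matches. CCL was 1.43 higher than at gamma 6 h and 5.83 higher than at gamma 1.5 h, and AT3G62550 was 2.07 and 6.34 higher. AT1G75900 was -3.42 from gamma 6 h and -0.66 from gamma 1.5 h, and AUR2 stood at 0.67 and -0.080. AT2G28720, lower than at gamma 6 h by -0.48, was 1.86 above gamma 1.5 h.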

How the data were processed

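Values are log2 levels of probe sets, deposited by the authors. The submitters' processing notes name GCOS 1.2, RMA and affy. Their settings are not given in the sources used here. Each array held RNA pooled from about 30 to 40 seedlings, per the labels. Values were used as deposited. Of 22810 probe sets, 64 controls were left out, 13513 of the rest had 1 gene in the platform annotation, 503 had several and 8730 had none. Gene IDs of 13436 matched the RefSeq gene table (TAIR10.1, for names only). Where several probe sets shared a gene, the one of highest average level was kept, which left 13355 genes. Detection calls were not used.

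All 44 arrays were fitted with limma 3.58.1 in R 4.3.3 as a group-means model (22 residual and 7.82 prior degrees of freedom, eBayes without trend, Benjamini-Hochberg over all genes). Errors are the model's SE, from 1 spread per gene pooled over all groups, and can understate the error of atm-1 gamma 6 h. The contrasts were HZE 1.5 h minus gamma 6 h in atm-1 and in WT, their difference, and HZE 1.5 h minus gamma 1.5 h in atm-1. Genes named are the 15 highest and 10 lowest called genes whose atm-1 groups do not overlap, the 5 highest and 5 lowest between genotypes, up to 4 members of each gene list with the largest differences, and all early damage genes; other list members printed were chosen after their values were seen. The members and lists were chosen with earlier results of these data known. Replicate differences of same-numbered arrays correlated at -0.13 in atm-1, 0.10 in WT, 0.024 between the HZE groups and -0.11 between atm-1 HZE and gamma at 1.5 h, so the numbers were not taken to pair arrays. In simulated data for the atm-1 contrast, with 200 changed genes among 13355, the fit called 59% of the genes changed 1.5-fold, 97% of those changed 2-fold and 8 that had been left unchanged. For the difference between genotypes, simulated in the same way, it called 29% of the genes changed 1.5-fold and 86% of those changed 2-fold. It also called 11 left unchanged. The simulation drew normal noise with 1 spread per gene for all arrays, so it held no array that stood apart. It changed 200 genes, where 5322 were called in the data. These rates therefore do not carry over to the real counts.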

Additional observations from a re-analysis of the deposited data

Results flagged for a closer look

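Each gene here had a difference between HZE 1.5 h and gamma 6 h that was called unlike in atm-1 and WT by the interaction term of the limma fit, and the value is the atm-1 difference minus the WT difference on the log2 scale. Negative values were found for AT1G20180 (-3.49), AT1G59660 (-2.82), AT3G42860 (-2.63), AT5G23910 (-2.37), ATMND1 (-2.36), AT5G67460 (-2.31), AT5G11460 (-2.24), IAA29 (-1.79), AT4G25580 (-1.64), AT2G47680 (-1.61), AT5G48020 (-1.36), HTB2 (-0.99), AT2G45460 (-0.92) and AT2G18600 (-0.83). Positive values were found for AT3G48770 (2.61), AT1G05030 (2.15), AT3G48960 (1.87), AT3G60420 (1.71), AT4G37290 (1.68) and ATG8B (0.95). AT5G67460 measured 5.25 and 5.23 in atm-1 HZE arrays and 6.98 and 7.50 in atm-1 gamma arrays, against 8.95 and 9.08 in WT HZE arrays and 8.58 and 8.82 in WT gamma arrays. AT5G11460 measured 5.59 and 5.71 in atm-1 HZE arrays and 6.15 and 6.65 in atm-1 gamma arrays, against 9.89 and 9.88 in WT HZE arrays and 8.38 and 8.43 in WT gamma arrays. The calls of AT2G18600, AT2G45460, AT4G25580, AT4G37290, ATG8B and HTB2 were lost under at least 1 alternative.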

How the results depend on the processing

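The atm-1 contrast called 5322 genes, 9997 probe sets when all probe sets were tested, and 3483 genes with the replicate block in a fit of the 4 arrays alone; with crossed numbers, added after the data were seen, that fit called 4359. Other alternatives kept its count within 1.5 times, with 5340 under the replicate block over all arrays, 3680 without a block in the 4 arrays alone (2236 higher and 1444 lower), 2685 higher and 2633 lower after quantile normalisation, and 4463 to 5592 when 1 array was left out. The WT contrast called 10005 probe sets and 4391 to 4541 genes without 1 array, and the contrast with gamma 1.5 h called 9909 probe sets and 4385 to 4531 genes without 1 array; there, centring moved the split to 3441 higher and 2160 lower, against 2683 and 2513. The difference between genotypes, 317 genes, was the least stable count: 744 with all probe sets, 146 with array weights, 109 in a fit of the 8 arrays alone, 72 with the replicate block there, 351 with the replicate block over all arrays, and 150 to 1662 without 1 array, with the highest count without atm-1 gamma replicate 2. Centring gave 134 positive and 165 negative genes, and quantile normalisation 117 and 183. The cause was not tested. Of 100 named genes called in atm-1, 75 kept call and direction under every alternative of that contrast that tested them, and no named call reversed. Genes with the means of both compared groups under 6 were absent from the fit that left out dim genes.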
